A study of Mus musculus with 47 samples.

Results

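The 39 genes described here mark the oligodendrocyte lineage of the mouse brain, from the dividing precursor to the cell that wraps axons in myelin. They were chosen by name, 39 of the 48795 genes in the deposited tables, with earlier results of these data known. By where they are known to act, 4 were taken as precursor genes, 7 as genes of newly formed oligodendrocytes, 25 as genes of myelinating cells and 3 as transcription factors of the whole lineage. Their messenger RNA was counted in the cerebral cortex of 47 C57BL mice, 23 female and 24 male, all aged 6 months. 3 groups carried no Huntington allele: wild type (WT, 8 mice), Ccdc82+/- (8) and Ccdc82-/- (8). The other 3 carried Q140, which the titles give as heterozygous: Q140 alone (8), Q140 with Ccdc82+/- (8) and Q140 with Ccdc82-/- (7). Q140 is a mouse line with an expanded CAG repeat placed in its own Htt gene, a model of Huntington's disease in which Htt keeps its own promoter. Ccdc82 encodes a protein named for its coiled coils, and no source used here states which part of the gene was deleted. Each sex gave 4 mice to a group, but the group of Q140 with Ccdc82-/- held 3 females.

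Oligodendrocyte precursors divide under the control of growth factor receptors, and a part of them leaves the cycle and becomes newly formed oligodendrocytes, which either die or go on to myelinate. Myelinating cells make very large amounts of a few structural proteins and of galactolipids, and in the cortex they also supply axons with metabolites. The transcription factors Olig1, Olig2 and Sox10 act through the lineage, and Myrf switches on the myelin genes.

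Each library held 43554594 to 61370843 counts (median 50473683), and the 39 genes took 0.260% to 0.403% of them (median 0.315%). All 39 passed the filter on low counts. The sex-linked genes matched the labelled sex in 47 of 47 libraries. Libraries are named below by genotype, sex letter and number. 2 of them lay at the extremes of the lineage genes: WT M1 had the lowest myelinating level of all mice, and Q140 F1 the highest share of counts in the 39 genes. The search for outlying mice given near the end flagged Q140 F1 but not WT M1. No source used here says whether the mice came from separate litters, so each p-value measures the spread between these 47 libraries.

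The lineage was well represented in this tissue. Per length, in WT, Mbp, the main structural protein of compact myelin on its inner face, was the most abundant at 140 ± 18.5 FPKM (SD, n = 8). Enpp2, the secreted enzyme autotaxin, followed at 59.4 ± 3.13 FPKM and Qdpr, which regenerates tetrahydrobiopterin, at 54.9 ± 5.90 FPKM, a pair whose SDs overlapped. Mobp, a second basic myelin protein, and Car2, the cytosolic carbonic anhydrase of these cells, had 47.1 ± 9.80 and 45.6 ± 2.18 FPKM, again within their spread of each other. Of the precursor genes, Ptprz1, a receptor-type phosphatase, was highest at 17.02 ± 0.963 FPKM. Bcas1, a marker of cells about to myelinate, led the newly formed group at 24.8 ± 3.99 FPKM. The lowest were Enpp6 at 0.490 ± 0.117 FPKM and the Wnt effector Tcf7l2 at 0.392 ± 0.0246 FPKM.

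Averaged over the genotypes, mice of one genotype differed more in genes of later stages. The coefficient of variation of a gene within its group had a median of 6.92% over the 4 precursor genes, 9.87% over the newly formed and 10.03% over the myelinating genes, against 8.12% over all genes tested. The ranges overlapped, with 4.37% to 7.92%, 5.77% to 18.35% and 4.97% to 19.98% in the same order. Opalin, a myelin protein of mammals, was the most variable at 19.98%, and Ptprz1 the least variable precursor gene at 4.37%. The lower spread of precursor genes did not hold in each genotype for the mean log2 level of a stage per mouse. Its SD for myelinating and precursor genes was 0.184 and 0.079 in WT, 0.038 and 0.081 in Ccdc82+/-, and 0.102 and 0.056 in Ccdc82-/-. With Q140 it was 0.131 and 0.069, 0.066 and 0.074, and 0.0753 and 0.0625, in the same order. WT and Q140 hold the libraries M1 and F1 named above. The spread sets how small a change could be seen. The median standard error of the pooled Q140 effect was 0.028 on the log2 scale for precursor, 0.045 for newly formed and 0.040 for myelinating genes.

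The Q140 allele was accompanied by small changes in both directions. Averaged over the 3 Ccdc82 genotypes, in 23 mice with Q140 against 24 without, Enpp6 and Anln rose and Car2, Qdpr, Tspan2 and Ugt8a fell, 6 of 39 genes, while the background was 168 of 19174 genes tested, or 0.876% (0.339% higher, 0.537% lower). A gene was called when its p in edgeR's quasi-likelihood test, adjusted over all genes tested by the Benjamini-Hochberg method, was under 0.05. At an unadjusted p under 0.05 there were 12 of 39, of which 5 had values above 0, and 9.18% of all genes. The median log2 change of the 39 was -0.01, that of all genes 0.00. In whole tissue, fewer cells of the lineage and less RNA per cell cannot be told apart.

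**Figure D1:**
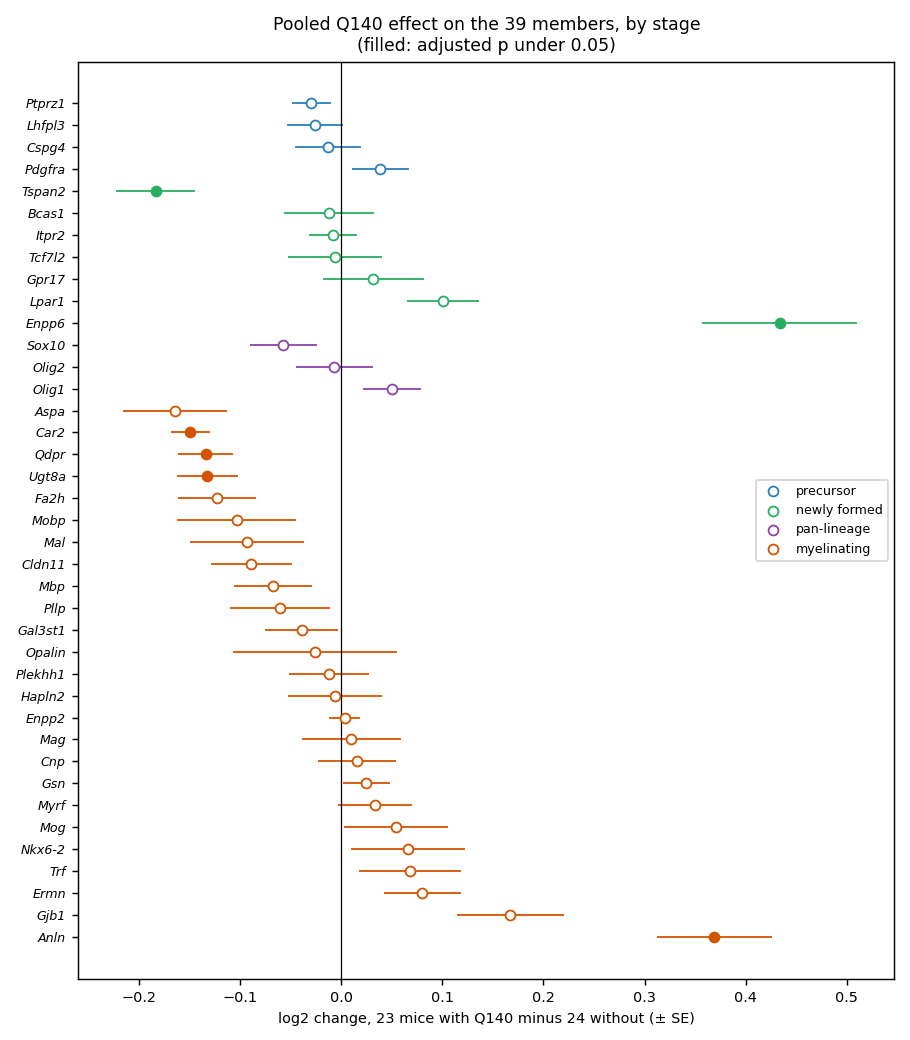
Log2 change of each of the 39 genes in 23 mice with Q140 against 24 without, averaged over Ccdc82 genotypes, on the x axis, with genes on the y axis ordered by stage. Points are estimates, bars are 1 SE and filled points passed the test; Enpp6 at 0.43 and Anln at 0.37 lie to the right of all other members, and the 4 filled points on the left lie between -0.18 and -0.13.

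By stage, none of the 4 precursor genes was called, with values from -0.03 to 0.04 and a median of -0.02. Pdgfra, the receptor through which platelet-derived growth factor drives precursor division, had a pooled log2 value of 0.04 with an SE of 0.028 (adjusted p = 0.750). Cspg4, the NG2 proteoglycan, had -0.01 (SE 0.033) and Lhfpl3, a precursor membrane protein, -0.03 (SE 0.028). Ptprz1 lay at 223, 243 and 262 CPM (counts scaled to library size, lowest, median and highest mouse) in WT and at 213, 229.6 and 259 CPM in Q140, which overlapped widely, and its pooled difference was -0.03 (SE 0.019, adjusted p = 0.699). None of the 3 lineage transcription factors was called either. Olig1, the most abundant of them, lay at 49.4, 57.0 and 68.7 CPM in WT and at 54.6, 60.3 and 70.1 CPM in Q140, with a pooled difference of 0.05 (SE 0.029, adjusted p = 0.641), Sox10 had -0.06 (SE 0.034) and Olig2 -0.01 (SE 0.038). Of the stage-specific factors, Myrf had 0.03 (SE 0.037), Nkx6-2, a homeobox factor of mature cells, 0.07 (SE 0.056), and Tcf7l2 -0.01 (SE 0.046). In all, 0 of 6 transcription factors passed.

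Among the 7 newly formed genes, 1 rose and 1 fell. Enpp6 (ENSMUSG00000038173, chr8:46986887-47096762, GRCm38) encodes a choline-specific phosphodiesterase that marks oligodendrocytes as they start to differentiate. Without Q140 its lowest, median and highest values were 2.28, 3.03 and 4.62 CPM in WT, 2.85, 3.23 and 3.96 CPM in Ccdc82+/-, and 2.11, 2.71 and 3.32 CPM in Ccdc82-/-. With Q140 they were 3.10, 4.09 and 6.75 CPM on wild-type Ccdc82, 3.06, 4.22 and 5.20 CPM with Ccdc82+/-, and 3.17, 4.08 and 5.27 CPM with Ccdc82-/-. The groups overlapped on each background, but 1, 5 and 5 of the mice with Q140 lay above every control of their background. The pooled log2 change was 0.43 (SE 0.077, adjusted p = 0.000641), with 20 of 23 mice above the control mean of their genotype and sex, and the libraries held 105 to 308 reads of this gene.

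Tspan2 (ENSMUSG00000027858, chr3:102734529-102801513), a tetraspanin of the oligodendrocyte membrane, fell. It lay at 48.1, 63.9 and 79.1 CPM in WT, 61.0, 62.6 and 67.2 CPM in Ccdc82+/- and 57.8, 61.5 and 75.4 CPM in Ccdc82-/-. With Q140 it lay at 50.4, 55.5 and 67.4 CPM, at 53.5, 54.7 and 61.6 CPM with Ccdc82+/- and at 49.4, 54.4 and 58.3 CPM with Ccdc82-/-. WT spanned the whole range of Q140, and on Ccdc82+/- and Ccdc82-/- 7 and 6 mice with Q140 lay below every control. The pooled change was -0.18 (SE 0.040, adjusted p = 0.00886), in 21 of 23 mice.

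The other 5 newly formed genes were not called. Lpar1, a receptor for the lysophosphatidic acid that autotaxin makes, had a pooled difference of 0.10 (SE 0.036, adjusted p = 0.246), and its single differences are given below. Gpr17, a receptor that holds cells at the immature stage, had 0.03 (SE 0.050), Bcas1 -0.01 (SE 0.045), Itpr2, a calcium release channel, -0.01 (SE 0.024) and Tcf7l2 is given above. Enpp6 and Gpr17, both known as markers of this stage, thus had differences of 0.43 and 0.03, and the difference between them was not tested.

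Of the 15 genes of the myelin membrane, its junctions and its cytoskeleton, 1 was called. Anln (ENSMUSG00000036777, chr9:22332012-22389188), anillin, binds actin and septins and serves cell division as well as the septin filaments of myelin. It lay at 9.93, 11.3 and 14.3 CPM in WT, 9.64, 12.1 and 16.1 CPM in Ccdc82+/- and 10.1, 11.7 and 16.4 CPM in Ccdc82-/-. With Q140 the values were 13.4, 15.2 and 19.2 CPM, 12.7, 15.2 and 20.4 CPM with Ccdc82+/-, and 12.5, 14.1 and 16.6 CPM with Ccdc82-/-. In Q140 against WT, 6 of 8 mice lay above all 8 WT mice, and the pooled change was 0.37 (SE 0.057, adjusted p = 0.000121), in 22 of 23 mice. Of the septin genes Septin2, Septin4, Septin7 and Septin8, which encode partners of anillin, 0 of 4 were called.

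The structural proteins of myelin did not pass. Mbp lay at 886, 1209 and 1364 CPM in WT and at 1070, 1136 and 1544 CPM in Q140, and its pooled difference was -0.07 (SE 0.038, adjusted p = 0.641). Mobp had -0.10 (SE 0.059), Mal, a raft-associated proteolipid, -0.09 (SE 0.056), and Cldn11, the claudin of the myelin tight junctions, -0.09 (SE 0.040, adjusted p = 0.465). On the other side of 0 lay Gjb1, connexin 32, at 0.17 (SE 0.053, adjusted p = 0.151), and Ermn, the cytoskeletal protein ermin, at 0.08 (SE 0.038). Mog, an antigen on the outer face of myelin, had 0.05 (SE 0.052), Gsn, the actin-severing gelsolin, 0.02 (SE 0.023), Cnp, a phosphodiesterase of uncompacted myelin, 0.02 (SE 0.038) and Mag, the glycoprotein that faces the axon, 0.01 (SE 0.049). Pllp, plasmolipin, had -0.06 (SE 0.049), Opalin -0.03 (SE 0.081), Plekhh1 -0.01 (SE 0.039) and Hapln2, a link protein at nodes of Ranvier, -0.01 (SE 0.046).

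Of the 8 genes of lipid synthesis, metabolism and secretion, 3 fell and 0 rose, with a median of -0.13. Car2 (ENSMUSG00000027562, chr3:14886273-14900770) lay at 106, 109.9 and 119 CPM in WT, 102, 111 and 116 CPM in Ccdc82+/- and 103, 110.1 and 119 CPM in Ccdc82-/-. With Q140 it lay at 91.5, 99.4 and 111 CPM, at 96.0, 101 and 112 CPM with Ccdc82+/- and at 90.5, 97.4 and 104 CPM with Ccdc82-/-. Below every control of their background lay 7 of 8, 4 of 8 and 6 of 7 of these mice. The pooled change was -0.15 (SE 0.020, adjusted p = 2.53e-06), in 22 of 23 mice. Car2 alone of the 39 was also called on a single background, as given below.

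Qdpr (ENSMUSG00000015806, chr5:45434021-45450236) lay at 78.9, 100.4 and 113 CPM in WT, 91.4, 97.6 and 109 CPM in Ccdc82+/- and 94.2, 99.8 and 110.4 CPM in Ccdc82-/-. With Q140 it lay at 83.8, 89.4 and 105 CPM, at 81.9, 91.3 and 99.9 CPM with Ccdc82+/- and at 80.4, 89.6 and 93.5 CPM with Ccdc82-/-. On Ccdc82-/- the groups did not overlap, the 1 case of that among the 39 genes there, where groups without overlap were found in 0.0522% of all genes. In Q140 against WT and on Ccdc82+/- it was 0 of 39, against 0.0469% and 0.0209% of all genes. The pooled change was -0.13 (SE 0.027, adjusted p = 0.00464), in 20 of 23 mice. Qdpr lies 10.5 Mb from Htt on chromosome 5, and the part of sequence linked to the allele in this result was not tested.

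Ugt8a (ENSMUSG00000032854, chr3:125865271-125938619) makes galactosylceramide, the main glycolipid of myelin. It lay at 20.7, 25 and 28.2 CPM in WT, 24.2, 27.5 and 28.7 CPM in Ccdc82+/- and 24.3, 26.3 and 31.6 CPM in Ccdc82-/-. With Q140 it lay at 21.6, 23.4 and 27.7 CPM, at 21.8, 24.6 and 25.7 CPM with Ccdc82+/- and at 19.5, 23.9 and 25.9 CPM with Ccdc82-/-. All 8 Q140 mice lay within the WT range, while 2 and 4 mice fell below every control on the mutant backgrounds. The pooled change was -0.13 (SE 0.030, adjusted p = 0.0138), in 20 of 23 mice. Fa2h, which hydroxylates the fatty acids of the same lipids, had -0.12 (SE 0.039, adjusted p = 0.147), and Aspa, which releases acetate from N-acetylaspartate, had -0.16 (SE 0.052, adjusted p = 0.144). Gal3st1, which sulfates galactosylceramide, had -0.04 (SE 0.036), Trf, the iron carrier transferrin, 0.07 (SE 0.050) and Enpp2 0.00 (SE 0.015).

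**Figure D2:**
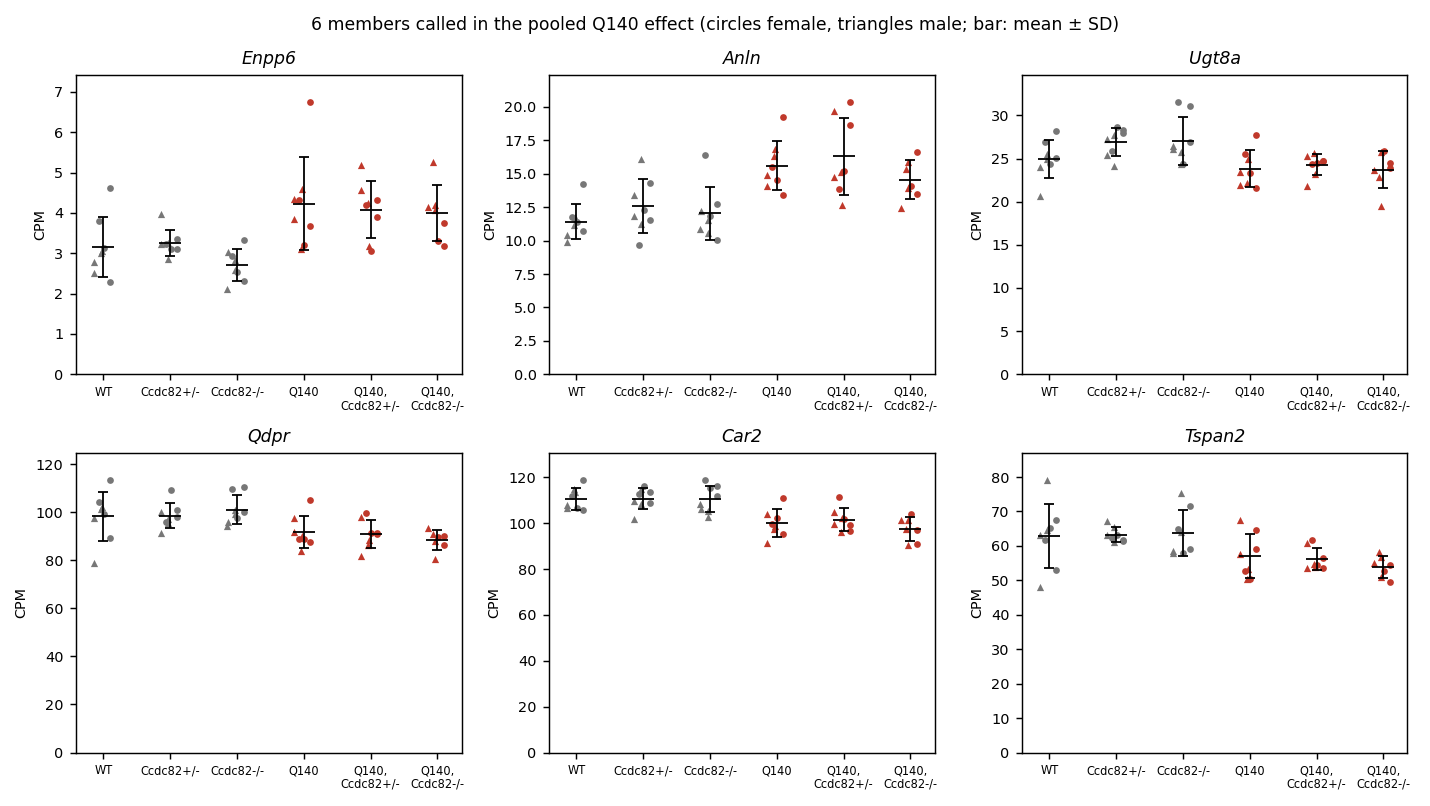
CPM (y axis, from 0) of the 6 genes that passed the pooled Q140 test, by genotype on the x axis. Each point is 1 mouse (circles female, triangles male), and black bars give the mean ± SD of 8 mice, or 7 for Q140 with Ccdc82-/-; Enpp6 and Anln sit higher in the 3 red groups with Q140, and Car2, Qdpr, Tspan2 and Ugt8a lower, with overlap in nearly all pairs of groups.

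2 libraries lay at the extremes of these genes, and the result was computed without them after the data were seen. Without WT M1 and Q140 F1, edgeR called 8 of 39 genes, against 0.982% of all genes. They were the same 6 and also Fa2h (-0.16, adjusted p = 0.00612) and Aspa (-0.20, adjusted p = 0.0161). Thus 5 of 8 genes of lipid synthesis, metabolism and secretion were called lower. The 2 libraries had been picked from these genes, a low control and a high Q140 mouse. Leaving them out thus favoured lower Q140 values from the start. The pooled median of the 25 myelinating genes went from -0.01 to -0.05, and the 2 further calls add no support. When any 1 of the 47 libraries was left out, all 6 genes stayed called, with 6 to 8 members called in all. In females alone 1 of 39 members was called (0.0984% of all genes) and in males alone 3 (0.0994% of all genes).

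The promoters of 5 of the 6 called genes, all but Car2, are shown because these genes moved in opposite directions, and they were picked after those values were seen. Each is the 300 bases from 250 before to 50 after a transcription start of RefSeq on GRCm38.p6, read 5′ to 3′ on the strand of the gene. Of the 39 genes, 29 matched the table, with 42 starts between them. Searched on both strands were ACAAAG, the core bound by SOX factors, CAGCTG, an E-box of the kind bound by OLIG proteins, and CTGGNAC, a MYRF-type motif. Capitals mark matches. The risers were Enpp6 (chr8:46986637-46986936, + strand) and Anln (chr9:22389157-22389456, - strand), and the fallers Qdpr (chr5:45450180-45450479, - strand), Tspan2 at the second of its 2 listed starts (chr3:102734965-102735264, + strand) and Ugt8a (chr3:125938603-125938902, - strand).
Enpp6: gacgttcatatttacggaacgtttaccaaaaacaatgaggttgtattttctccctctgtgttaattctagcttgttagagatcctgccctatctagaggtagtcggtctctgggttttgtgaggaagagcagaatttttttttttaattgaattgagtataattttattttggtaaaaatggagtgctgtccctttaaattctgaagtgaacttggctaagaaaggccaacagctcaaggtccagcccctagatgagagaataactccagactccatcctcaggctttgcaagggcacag
Anln: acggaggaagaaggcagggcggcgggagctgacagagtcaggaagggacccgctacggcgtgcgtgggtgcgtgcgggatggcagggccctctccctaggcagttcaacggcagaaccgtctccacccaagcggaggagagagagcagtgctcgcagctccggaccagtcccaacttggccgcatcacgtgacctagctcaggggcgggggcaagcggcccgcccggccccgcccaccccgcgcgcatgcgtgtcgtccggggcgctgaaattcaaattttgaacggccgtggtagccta
Qdpr: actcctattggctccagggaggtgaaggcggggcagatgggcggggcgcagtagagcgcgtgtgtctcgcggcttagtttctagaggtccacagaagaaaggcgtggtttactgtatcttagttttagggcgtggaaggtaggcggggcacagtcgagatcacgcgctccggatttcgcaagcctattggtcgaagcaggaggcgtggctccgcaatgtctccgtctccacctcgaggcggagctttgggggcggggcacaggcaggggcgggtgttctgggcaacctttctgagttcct
Tspan2: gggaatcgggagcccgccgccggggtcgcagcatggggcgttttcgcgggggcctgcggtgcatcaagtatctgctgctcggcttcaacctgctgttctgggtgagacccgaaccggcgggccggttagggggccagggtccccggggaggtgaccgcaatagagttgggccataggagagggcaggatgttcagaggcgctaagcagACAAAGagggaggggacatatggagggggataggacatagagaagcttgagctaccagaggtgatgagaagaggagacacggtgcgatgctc
Ugt8a: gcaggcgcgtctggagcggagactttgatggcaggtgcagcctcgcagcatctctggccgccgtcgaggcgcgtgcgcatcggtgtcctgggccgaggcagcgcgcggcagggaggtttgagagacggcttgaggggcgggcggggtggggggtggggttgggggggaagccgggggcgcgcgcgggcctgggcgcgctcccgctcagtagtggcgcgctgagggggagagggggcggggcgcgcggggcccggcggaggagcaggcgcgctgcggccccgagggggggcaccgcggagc
Over these 5 windows and the first Tspan2 start, 1 match was found, ACAAAG in the Tspan2 window. Across all members ACAAAG was in 26.2% of 42 windows, CAGCTG in 14.3% and CTGGNAC in 28.6%, beside 18.7%, 16.3% and 19.3% of all 32851 windows of this length. The Enpp6 window was poor in GC (40.3%, with 4 CpG) and that of Ugt8a rich (78.3%, with 40 CpG), against a median of 60% over member windows and 52.7% over all windows. A match is a run of letters and not a site, and none of these letters bears on binding.

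On single Ccdc82 backgrounds the same test called far fewer genes. In Q140 against WT, 0 of 39 members were called (background 0.0313% in either direction, 0.0209% higher and 0.0104% lower), with 10 at an unadjusted p under 0.05 (6.93% of all genes), 6 above 0 and 4 below. In Q140 with Ccdc82+/- against Ccdc82+/- it was 0 of 39 (background again 0.0313%, 0.0209% higher and 0.0104% lower), with 8 at that p (5.18% of all genes). In Q140 with Ccdc82-/- against Ccdc82-/- it was 1 of 39 (background 0.0209%, 0.0156% higher and 0.00522% lower), with 11 at that p (4.17% of all genes), and the 1 was Car2, with a log2 change of -0.18 (SE 0.035) and an adjusted p of 0.0258. DESeq2 called 2 members in Q140 against WT (Car2 and Anln), where its background was 0.125% of all genes. It called 0 on Ccdc82+/- and 1 on Ccdc82-/-, where 5 and 4 of 19174 genes were called higher and 4 and 2 lower. Without WT M1 and Q140 F1, a choice that favoured lower Q140 values, edgeR called 1 in Q140 against WT, again Car2 (background 0.0418%). The call of Car2 on Ccdc82-/- was lost with the title number as a block (adjusted p = 0.0829), in limma on FPKM (0.0542) and when these 2 groups were fitted alone (0.126). These 3 comparisons share no mice, and together they make the pooled effect, so they are not independent of it.

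The 6 genes had the same sign on each background, which their choice on the average makes likely. Car2 had -0.15 (SE 0.033) against WT, -0.13 (SE 0.033) on Ccdc82+/- and -0.18 (SE 0.035) on Ccdc82-/-. Enpp6 had 0.42 (SE 0.130), 0.33 (SE 0.130) and 0.55 (SE 0.137) in that order, and Anln 0.45 (SE 0.098), 0.37 (SE 0.098) and 0.28 (SE 0.102). Tspan2 had -0.14, -0.17 and -0.24, Qdpr -0.10, -0.11 and -0.19, and Ugt8a -0.07, -0.15 and -0.18, with SEs of 0.05 to 0.07. Genes with an unadjusted p under 0.05 against WT alone included Lpar1 at 0.20 (SE 0.061), Gjb1 at 0.29 (SE 0.091) and Ermn at 0.18 (SE 0.065), whose values were 0.07, 0.07 and 0.06 on Ccdc82+/- and 0.03, 0.15 and 0.01 on Ccdc82-/-.

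**Figure D3:**
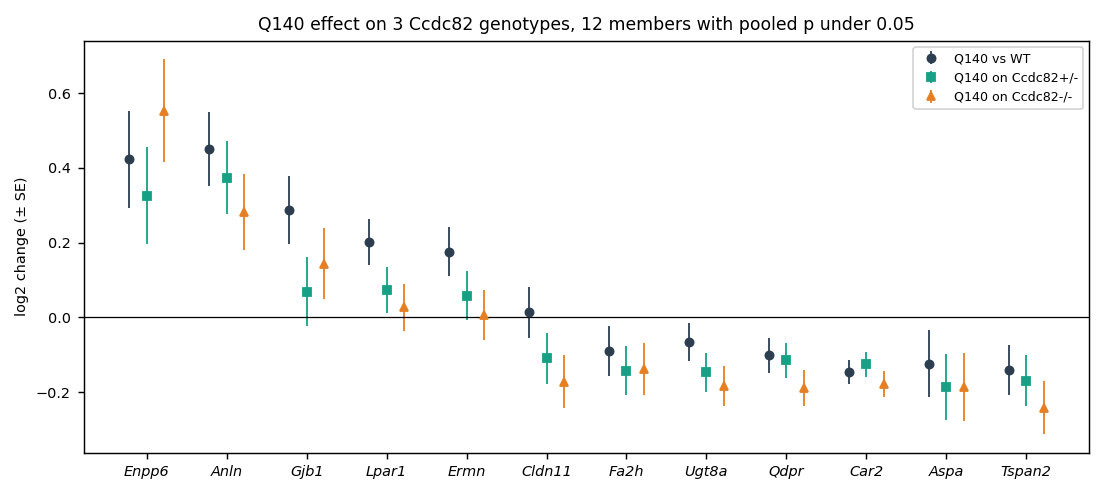
Log2 change with Q140 (y axis, ± SE) for the 12 members with a pooled unadjusted p under 0.05 (x axis), on wild-type Ccdc82 (circles), Ccdc82+/- (squares) and Ccdc82-/- (triangles). Car2 on Ccdc82-/- alone passed the test among these points; Enpp6 and Anln lie above 0 on all 3 backgrounds, and Cldn11 lies on both sides of 0.

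The difference of the Q140 effect between backgrounds was itself tested. It called 0 of 39 members and 0 of all 19174 genes (0%) for Ccdc82+/- and for Ccdc82-/-. DESeq2 also called 0 members in both. In edgeR 2 members (5.13%) and 0 members had an unadjusted p under 0.05, against 3.52% and 2.96% of all genes. The 2 members at that p were Enpp2 (-0.08, SE 0.037) and Gsn (-0.11, SE 0.057). The interaction with Ccdc82-/- lay below 0 in 23 of 25 myelinating genes, with a median of -0.11 against 0.00 over all genes, and above 0 in 4 of 4 precursor genes, with a median of 0.10. Without WT M1 and Q140 F1 it lay below 0 in 15 of 25 myelinating genes, with a median of -0.03, and in 0 of 4 precursor genes, with a median of 0.11. Leaving out a low WT and a high Q140 mouse favoured higher values of this interaction in myelinating genes from the start. The change therefore does not show where the shift came from. In the fit of all mice the lowest value of this interaction was that of Mobp, -0.27 (SE 0.145, unadjusted p = 0.0736). The median SE of a member was 0.10, so differences of the size of most pooled effects could be missed.

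Loss of Ccdc82 without Q140 changed no member detectably. In Ccdc82+/- against WT 0 of 39 were called (background 0.00522%, which was Ccdc82 itself) and in Ccdc82-/- against WT 0 of 39 (background 0.00522%), with an unadjusted p under 0.05 for 1 and 3 members in edgeR (3.6% and 3.23% of all genes), and DESeq2 called 0 in both. Ugt8a was the member with the smallest p in each, at 0.11 (SE 0.051, adjusted p = 0.993) and 0.12 (SE 0.051, adjusted p = 0.999). In Ccdc82-/- the other 2 were the precursor genes Pdgfra (-0.10, SE 0.049) and Ptprz1 (-0.07, SE 0.033). Both comparisons use the same WT mice. Of 25 myelinating genes, 20 lay above 0 in Ccdc82+/- (median 0.04) and 21 in Ccdc82-/- (median 0.05), and WT M1, the library with the lowest myelinating level, is among those WT mice. Without WT M1 and Q140 F1, 10 lay above 0 in Ccdc82+/- (median -0.0048) and 14 in Ccdc82-/- (median 0.0032). WT M1 was picked for its low myelinating level, so leaving it out favoured lower values here from the start. The change therefore does not show where the shift came from.

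With Q140 the same loss gave 0 of 39 members for Ccdc82+/- and 0 for Ccdc82-/- (background 0.00522% each) in edgeR and in DESeq2. In edgeR 1 and 0 members had an unadjusted p below 0.05, against 5.42% and 4.09% of all genes. Here the values lay the other way, with 31 of 39 members below 0 in Q140 with Ccdc82-/- against Q140 (median -0.06), where Q140 F1, the library highest in the lineage, is a control. Without the 2 libraries it was 24 of 39 (median -0.01). Q140 F1 was picked as a high mouse, so leaving it out favoured higher values here from the start. Averaged over mice with and without Q140, 0 of 39 members were called for either genotype (background 0.00522% each) in edgeR and in DESeq2. In edgeR 0 and 1 had an unadjusted p below 0.05, against 5.31% and 4.65% of all genes. The members ranged from -0.10 to 0.10 in Ccdc82+/- and from -0.15 to 0.14 in Ccdc82-/-.

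Stage means per mouse show how the libraries spread. The mean log2 level over the 25 myelinating genes, relative to WT, ran from -0.34 (M1) to 0.21 (F2) within WT alone, and from -0.10 to 0.32 (F1) in Q140. Over all mice its median was 0.05 without and 0.01 with Q140. The mean over the 7 newly formed genes had a median of -0.02 without and 0.03 with Q140, and Q140 F1 lay far above at 0.47, while the other 22 mice with Q140 reached 0.12. The mean over the 4 precursor genes had medians of -0.03 and -0.05. The newly formed mean less the myelinating mean had a median of -0.09 without and 0.01 with Q140, and both sets of mice spanned 0. By genotype its median was -0.016 in WT, -0.077 in Ccdc82+/- and -0.125 in Ccdc82-/-. With Q140 it was 0.033, 0.008 and -0.012 in the same order, so the difference was smallest on wild-type Ccdc82. A mean over 7 genes can be moved by 1 of them. In the pooled Q140 effect 3 of the 7 newly formed genes lay above 0 and 4 below (median -0.0064), with Enpp6 the highest at 0.43. The part of Enpp6 in these stage differences was not tested.

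**Figure D4:**
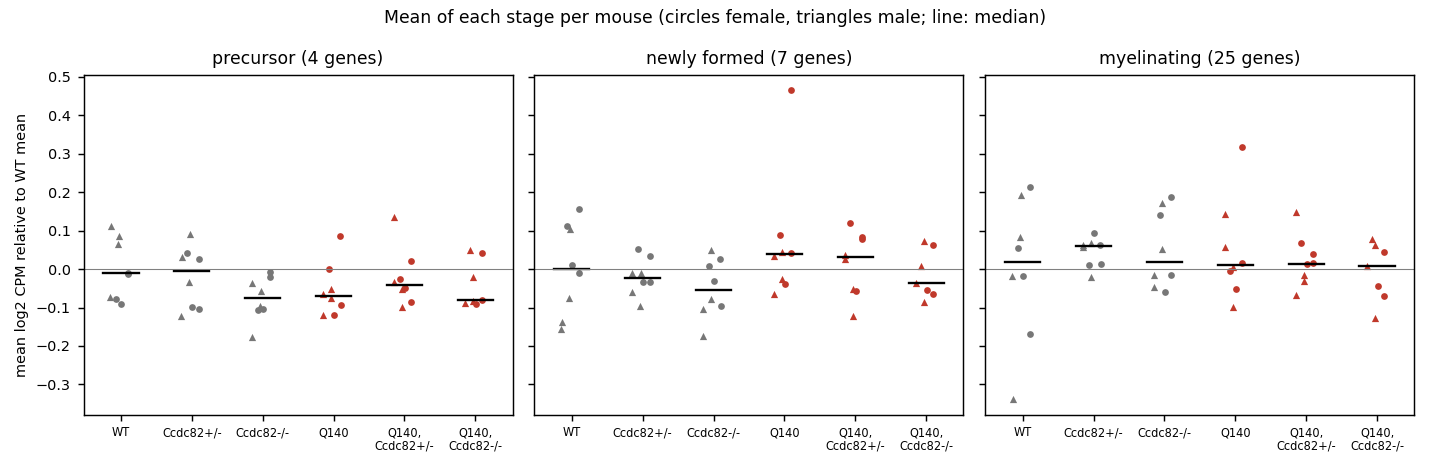
Mean log2 CPM of the 4 precursor, 7 newly formed and 25 myelinating genes in each mouse, relative to the WT mean (y axis), by genotype (x axis). Points are mice (circles female, triangles male; red with Q140) and lines are medians; the 8 WT mice spread from -0.34 to 0.21 in the myelinating panel, and the Q140 point at 0.47 in the newly formed panel is F1.

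Between the sexes 6 of 39 members (15.4%) were called, all lower in males. The background was 10.5% of genes in either direction, 5.26% higher and 5.27% lower. The share of members called was thus not far above that of all genes called in either direction. The values below describe single genes and not the lineage. The 6 are autotaxin, 3 genes of the newly formed stage and 2 of myelinating cells. Each of the 19 numbers in the library names holds mice of 1 sex, and what the number marks is not stated. With it as a random block, 2 of 39 members stayed called, Enpp2 and Gpr17, close to the background of 4.44%. In that fit Lpar1, Bcas1, Ugt8a and Ermn had adjusted p of 0.0560, 0.0895, 0.0606 and 0.0964. In limma on FPKM Enpp2, Gpr17 and Lpar1 stayed (background 9.51%). Enpp2 lay at 199.6, 216 and 234 CPM in 23 females and at 189, 202 and 214 CPM in 24 males, which overlapped, and was lower in males by a log2 difference of -0.10 (SE 0.015, adjusted p = 3.59e-05). Gpr17 lay at 32.6, 39.6 and 49.6 CPM in females and 25.4, 32.3 and 44.1 CPM in males, a difference of -0.26 (SE 0.050, adjusted p = 0.000802). Lpar1, the receptor on the pathway of autotaxin, had -0.13 (SE 0.036, adjusted p = 0.0156), between 13.9, 15.7 and 21.8 CPM in females and 12.4, 14.5 and 17.4 CPM in males. Bcas1 lay at 86.3, 93.0 and 139.6 CPM in females and 65.8, 87.3 and 110.2 CPM in males (-0.14, SE 0.045, adjusted p = 0.0393).

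Ugt8a had -0.10 (SE 0.030, adjusted p = 0.0251) and Ermn -0.11 (SE 0.038, adjusted p = 0.0440) in the same comparison, with females at 21.6, 25.5 and 31.6 CPM and 28.3, 32.2 and 44.3 CPM and males at 19.5, 24.6 and 27.7 CPM and 24.1, 30.02 and 33.8 CPM. Without the libraries WT M1 and Q140 F1, 5 members were called between the sexes, where the background was 12%: Enpp2, Gpr17 and Lpar1 stayed, Olig2 (lower in males) and Opalin (higher) were added, and Bcas1, Ugt8a and Ermn were lost. In the fit of all mice Opalin had the highest value, 0.21 (SE 0.081, adjusted p = 0.0875). Precursor members had 0 of 4 called, with a median of 0.01. Autotaxin is also made in the choroid plexus, whose 7 tested markers were called in 0 cases between the sexes, and of which Ttr, transthyretin, lay at 0.246, 0.653 and 3.72 CPM in females and 0.167, 1.08 and 3.09 CPM in males. Meningeal fibroblast markers lay below 0 in males in 10 of 10 cases (median -0.16), with 1 called, Foxc1, and their part in the result was not tested.

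**Figure D5:**
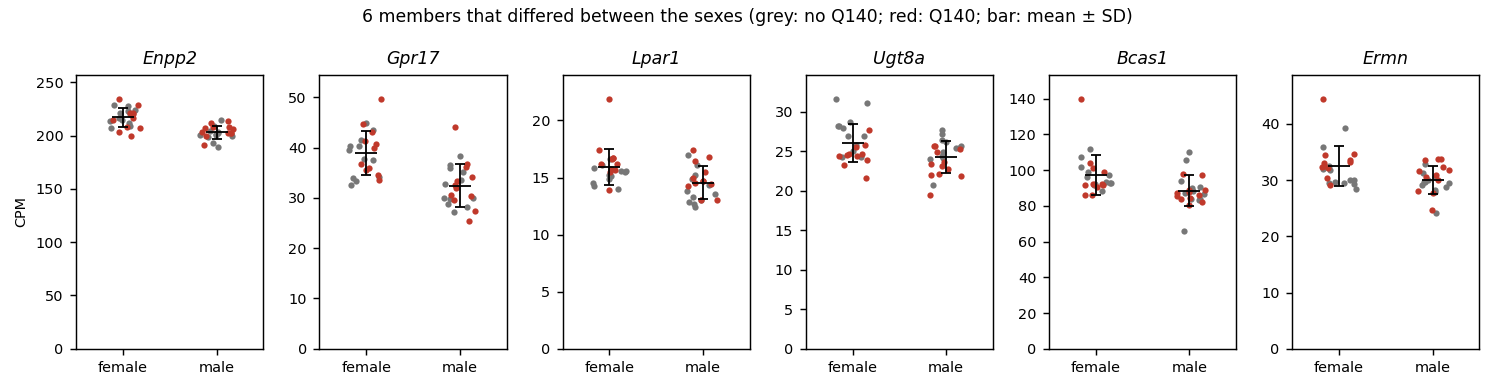
CPM (y axis, from 0) of the 6 genes that differed between 23 females and 24 males (x axis), 1 point per mouse, red with Q140 and grey without, with mean ± SD in black. All 6 are lower on average in males, and in each gene the sexes overlap; the highest female value of Lpar1, Bcas1, Ermn and Gpr17 is 1 red point, Q140 F1.

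The effect of Q140 did not differ detectably between the sexes. The difference of the pooled effect, males less females, called 0 of 39 members and 0 of all genes (0%), and DESeq2 also called 0. In edgeR 0 members had an unadjusted p under 0.05, against 4.01% of all genes. Enpp6 had 0.31 (SE 0.106) in females and 0.54 (SE 0.103) in males, a difference of 0.22 (SE 0.148). Anln had 0.37 in each sex (SE 0.083 and 0.082), and Car2 -0.17 (SE 0.028) and -0.13 (SE 0.027). Within 1 sex, 1 of 39 members was called in females (Car2, background 0.0678%, 0.0417% higher and 0.0261% lower) and 3 in males (Enpp6, Anln and Car2, background 0.177%, 0.0887% higher and 0.0887% lower).

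Other genes of the lineage that are not among the 39 were read from lists chosen with these results known. Of 42 further myelinating genes, 5 rose and 1 fell in the pooled Q140 effect, or 14.3%. The background was 0.876% of all genes (0.339% higher, 0.537% lower). Of 13 tested newly formed genes 0 were called, and of 13 precursor genes 0. In each of these 2 lists 1 gene (7.69%) had an unadjusted p under 0.05, below the 9.18% of all genes. Slc45a3, a sugar transporter of oligodendrocytes, rose by 0.54 (SE 0.109, adjusted p = 0.00359), from 0.201, 0.319 and 0.518 CPM without Q140 to 0.265, 0.500 and 0.670 CPM with it, a low level. Plxnb3, a semaphorin receptor, rose by 0.20 (SE 0.042, adjusted p = 0.00701), Apod, the lipid carrier apolipoprotein D, by 0.26 (SE 0.057, adjusted p = 0.0146) and Zfp488, a transcriptional regulator of the lineage, by 0.26 (SE 0.061, adjusted p = 0.0203). Il33, an alarmin made by oligodendrocytes and some astrocytes, fell by 0.19 (SE 0.042, adjusted p = 0.00886). The sixth, Hhip, an inhibitor of hedgehog signalling, rose by 0.19 (SE 0.049).

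Some markers of other cells were called in the same contrast. The background was again 0.876% of all genes (0.339% higher, 0.537% lower), with 9.18% at an unadjusted p under 0.05. Of 10 astrocyte markers 4 fell, Glul, Kcnj10, Aldoc and Slc1a2, and the summed level of the list was 6814 to 7986 CPM in mice without Q140 and 6541 to 7517 CPM in those with it. Of 10 neuronal markers 1 fell, Rbfox3 (summed 8891 to 10090 and 8840 to 9854 CPM), of 10 microglial markers 1 rose, Ctss (317 to 388 and 335 to 402 CPM), of 10 striatal genes 1 rose and 9 lay below 0 (median -0.04, with 3 lower at an unadjusted p under 0.05), and of 10 endothelial and pericyte and 10 meningeal markers 0 were called. Of 7 tested choroid plexus markers 0 were called (summed 3.76 to 9.28 and 4.03 to 8.78 CPM over the 10 listed), and of 4 tested Schwann cell genes 0. Meningeal markers lay above 0 in 10 of 10 cases in the average, with a median of 0.13. The backgrounds differed: 10 of 10 lay above 0 against WT (median 0.313), 1 of 10 on Ccdc82+/- (-0.0758) and 10 of 10 on Ccdc82-/- (0.176). None of the lists was at 0 in all mice, and their part in the changes of Car2, Qdpr, Tspan2 and Ugt8a was not tested.

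All 39 genes had the chromosome and strand of GENCODE M21 on GRCm38. 3 lie on chromosome 5 with Htt and 4 on chromosome 9 with Ccdc82. Anln lies 9.04 Mb from Ccdc82, and its difference in Ccdc82-/- against WT was 0.07 (SE 0.0995, adjusted p = 0.999). Cnp, Gpr17, Nkx6-2 and Plekhh1 overlap a gene on the opposite strand that holds over 5% of their counts, and Lhfpl3 overlaps one on its own strand. No source used here states whether reads were counted by strand, and the levels of these 5 are therefore uncertain, and none of them was called with Q140, while Gpr17 was called between the sexes.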

How the data were processed

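RNA from the cerebral cortex of 47 mice was sequenced with a stranded library kit, per the labels' protocols. The authors deposited raw counts of reads for each gene and a second table of FPKM. FPKM divided by counts and multiplied by the library total gave the same gene length in all libraries over 19539 genes (relative range at most 1.17e-13). The submitters' processing notes list STAR 2.7.5c, SAMtools 1.10 and HTSeq 0.12.3, and as builds GRCm38 and mm10. Annotation and strand setting of the counting are not given in the sources used here. All entries named a gene (0 did not), and 13 septin names stored as dates were restored from the description column.

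filterByExpr (minimum count 10, minimum total 15) left 19174 genes. After TMM scaling, 1 quasi-likelihood fit in edgeR 4.0.16 (R 4.3.3) held all 47 libraries, with 6 genotype means and sex, and p-values were adjusted over all genes tested. CPM values use the TMM factors. Differences between the sexes in the Q140 effect came from means for each genotype and sex. An SE is the log2 change divided by the root of F. Depth was 43554594 to 61370843 counts, and the chi-square per gene between replicates was at least 3.87, so no library repeated another of its group. Alternatives were DESeq2 1.42.0, limma 3.58.1 on log2(FPKM + 0.1), RLE factors, no filter, no sex term, plate column, plate row or title number as terms, a random block on the number in the library name, and subsets of the mice. The fit was tested on simulated data.

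The 39 genes, their stages and all other gene lists were chosen with earlier results of these data known. All 39 are accounted for. Values by group are given for those called in the pooled Q140 effect or any single contrast, and for the most abundant of a stage or role without a call. Of the other lineage lists at most 5 called genes each are named, by smallest p, to which Hhip was added after its value was seen. Single values of some genes on these lists are not reported here.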

Additional observations from a re-analysis of the deposited data

Results flagged for a closer look

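Single mice lay far from the others of their genotype in 7 of 72 groups of values examined, where chance alone gives about 1 in 20. In each case the gap between the mouse and its nearest neighbour was a large part of the whole range of its group. WT mouse M1, which was left out together with Q140 F1 above, was not among these cases. Q140 mouse F1 accounts for 3 of them. It had 6.75 CPM of Enpp6, against 3.10 to 4.60 CPM in the other 7 Q140 mice. Its mean over the 7 newly formed genes was 0.466 on the log2 scale relative to WT, against -0.06 to 0.09 in the others, and the 39 genes took 0.403% of its counts, against 0.294% to 0.332%. Enpp6 was also high in Ccdc82+/- mouse M1, at 3.96 CPM against 2.85 to 3.36 CPM. Anln lay at 16.4 CPM in Ccdc82-/- mouse F4, against 10.1 to 12.7 CPM, and at 14.3 CPM (14.25) in WT mouse F2, against 9.93 to 11.8 CPM. The newly formed mean less the myelinating mean was 0.0285 in Ccdc82-/- mouse F3 and -0.16 to -0.08 in the other 7.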

How the results depend on the processing

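Under 12 alternatives no called result changed direction (0 reversed). The 6 calls of the pooled Q140 effect remained under all of them but the fits of 1 sex, which hold 23 and 24 mice: females alone kept 1, Car2 (0 higher, 1 lower), males alone kept 3, Enpp6, Anln and Car2 (1 lower), and in both the other lineage genes gave 0 in place of 6. Leaving out each of the 47 libraries in turn gave 6 to 8 called members, 2 to 2 of them higher and 4 to 6 lower, and 5 to 6 other lineage genes. Of the 33 members not called, Fa2h and Aspa were called under some alternative, and 12 had another sign under at least 1.

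In Q140 against WT the count of 0 became 1 with plate column as a term (background 0.0261%) and 2 with DESeq2 (0.125%). It became 1 when the groups compared were fitted alone (0.0273%) and 1 without WT M1 and Q140 F1 (0.0418%). On Ccdc82+/- the count became 1 with plate row as a term (4 higher and 4 lower over all genes). On Ccdc82-/- the count of 1 became 0 in limma on FPKM and in the groups fitted alone. Between the sexes 6 became 3 in limma on FPKM (Enpp2, Gpr17 and Lpar1, background 9.51%). With the library number as a random block it became 2 (Enpp2 and Gpr17, correlation 0.142, background 4.44%). The cause was not tested.

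With the replicate number as a block (replicate block), the pooled effect called 6 members and the sex comparison 6, and Car2 on Ccdc82-/- was lost, which left 0. Mice of different genotypes with the same replicate number did not deviate together (median r 0.0153, over 0.1 in 11 of 115 pairs), so these numbers were not read as pairs. With different replicate numbers the median r was -0.0022, over 0.1 in 66 of 805 pairs. Pairs that shared the number in the library name had a median r of 0.038, over 0.1 in 9 of 38. The main fit holds no term for that number, which was used as a random block in an alternative.

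Over all genes the pooled effect called 65 higher and 103 lower, against 69 and 68 in limma on FPKM, 41 and 56 with plate row, 88 and 151 in DESeq2, 7 and 12 in females alone and 8 and 11 in males alone. With SEs near 0.10 for a single interaction, differences of the size seen here could be missed.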

Other observations

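Some genes of the lineage outside the 39 were also called between the sexes. The background was 10.5% of genes in either direction, 5.27% lower and 5.26% higher in males. Called were 23.1% of the further precursor, 15.4% of the newly formed and 9.52% of the myelinating genes. The last share was below that of all genes. Of 13 further precursor genes 3 were lower in males by edgeR's quasi-likelihood test, among them the matrix proteoglycan Vcan, whose log2 difference was -0.13 (adjusted p = 0.00125, SE 0.027), and the secreted C1ql1, at -0.19 (SE 0.053, adjusted p = 0.0148). Of 13 further newly formed genes 1 was lower, the sialidase Neu4 (-0.16, SE 0.037), and 1 higher, Tmem2, which degrades hyaluronan (0.14, SE 0.025, adjusted p = 0.000132). Of 42 further myelinating genes 4 were lower, among them the chaperone Cryab (-0.16, SE 0.037), Tppp, which binds tubulin (-0.05, SE 0.012), and Dock5 (-0.16, SE 0.038). These genes were named after their values were seen.

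Some markers of other cells were called in the same comparison, where the background was 10.5% of all genes. Called were 1 of 10 astrocyte, 3 of 10 endothelial and pericyte and 2 of 10 neuronal markers. Each list held values on both sides of 0, with 2, 4 and 6 of 10 higher in males in that order. The values below describe single genes and not cell types. The astrocyte potassium channel Kcnj10 was lower in males (-0.18, SE 0.024), as were the endothelial genes Cldn5 (-0.21, SE 0.042), Kdr (-0.19, SE 0.054) and Flt1 (-0.08, SE 0.027). Gad1 and Gad2, which make GABA, were higher in males by 0.06 (SE 0.015) and 0.05 (SE 0.013). Of 10 striatal genes 7 lay below 0 (median -0.03) and 1, Ppp1r1b, was called, higher by 0.10 (SE 0.032). Their part in the values of the lineage genes was not tested.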
